A study of Mus musculus with 4 samples.

Results

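The Akr1c genes of the mouse encode aldo-keto reductases that act as hydroxysteroid dehydrogenases. The 8 genes Akr1c6, Akr1c12, Akr1c13, Akr1c14, Akr1c18, Akr1c19, Akr1c20 and Akr1c21 were described in Beta-TC-6, an insulin-producing line of mouse pancreatic beta cells. A gene was measured by the probe set whose only gene symbol it is. By this rule 7 of the 8 had a value, out of 22180 genes in all, and Akr1c13 had none. The tested cells had been transfected with siRNA against NF90 (siNF90), a double-stranded RNA-binding protein, as a mixture of 3 RNAi duplexes, and the controls with a negative control siRNA (siNTC). Both groups were grown in medium with 25 mM glucose and 15% serum, and each has 2 arrays. The labels do not state that the 2 arrays of a group hold RNA of separate cultures, so the spread between them may be technical. How far NF90 was depleted is not analysed here, so siNF90 names the label of these arrays.

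Aldo-keto reductases of this subfamily use NADPH or NADH to reduce ketones on steroids to alcohols, or run the reaction in reverse. In this way they switch androgens, progestins and oestrogens between forms that bind their receptors strongly and forms that bind weakly. They also reduce other carbonyl compounds, prostaglandins among them. In rodents they are known mainly from liver, gonads and adrenal, and their genes lie side by side in a cluster.

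The family was chosen by the difference between siNF90 and siNTC on these same arrays, in which Akr1c14 was among the genes with the lowest values. The members' levels and differences are therefore given as a description, without a test. All values are on the log2 scale of the table that the authors deposited, and a difference is siNF90 minus siNTC. Array medians over 41345 probe sets were 1.65 and 1.66 in siNF90 and 1.68 and 1.66 in siNTC. Across genes, which are no independent replicates, Pearson's r was 0.9919 between the siNF90 arrays, 0.9927 between the siNTC arrays and 0.9895 to 0.9913 between a siNF90 and a siNTC array. Since the table holds no measure of background, whether a low value was detected cannot be said. Signals of different probe sets do not rank their transcripts, because each probe set binds with its own strength. Of the 9 beta cell markers measured, 8 lay at or above the median level of all genes (1.845). The exception was Ucn3, a peptide of mature beta cells, at 1.63 ± 0.33 in siNF90 and 1.56 ± 0.04 in siNTC (SD, n = 2 arrays each).

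Akr1c14 had the largest difference of the 7 measured members, and it was lower in siNF90. This enzyme reduces dihydrosteroids such as dihydrotestosterone and dihydroprogesterone to their alpha-hydroxy forms, the step that makes neuroactive steroids from progesterone. Its probe set (17284919) read 2.8 and 2.96 on the siNF90 arrays, against 4.19 and 4.06 on the siNTC arrays. Each siNF90 array lay below each siNTC array, and the nearest arrays of the groups stood 1.1 apart, against 0.16 between the siNF90 arrays and 0.13 between the siNTC arrays. The means were 2.88 ± 0.11 in siNF90 and 4.13 ± 0.09 in siNTC (SD, n = 2 each), a log2 difference of -1.25 ± 0.13 (SE of the fit), or 2.37-fold lower. The mean stood at the 60.6th percentile of all genes in siNF90 and at the 71.3th in siNTC, so the signal lay above the median of all genes in both groups. The difference was the 9th lowest of 22180 genes. It lay between -1.17 and -1.33 with any single array left out. Of all genes, 22 were at least 2-fold lower in siNF90 (0.0992%), Akr1c14 among them. Of the 921 other genes whose mean lay within 0.25 of its own, 0 (0%) had a difference as low. These shares come from the contrast that chose the family and are no evidence about it.

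**Figure D1:**
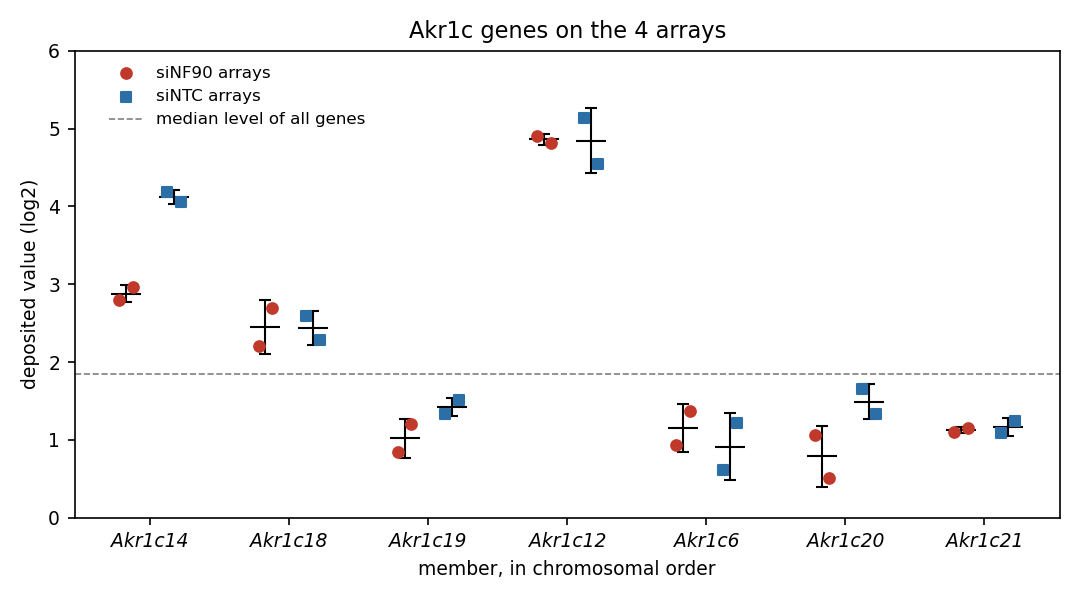
Deposited log2 value (y axis) of the 7 Akr1c genes with a probe set of their own, in chromosomal order (x axis), on the 2 siNF90 arrays (circles) and the 2 siNTC arrays (squares). Black bars are means ± SD, and the dashed line is the median level of all genes (1.845). Akr1c14 lay at 2.8 and 2.96 on the siNF90 arrays and at 4.19 and 4.06 on the siNTC arrays, and Akr1c12 and Akr1c18 overlapped between the groups.

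The 250 bases before the transcript start of Akr1c14 are shown because this member had the largest difference. They lie at chr13:4059341-4059590 on the plus strand (RefSeq, GRCm38.p6, the C57BL/6J reference, not read from this cell line), and the last letter is the base just before the start. Capitals mark TATTTAA, an AT-rich run.
Akr1c14: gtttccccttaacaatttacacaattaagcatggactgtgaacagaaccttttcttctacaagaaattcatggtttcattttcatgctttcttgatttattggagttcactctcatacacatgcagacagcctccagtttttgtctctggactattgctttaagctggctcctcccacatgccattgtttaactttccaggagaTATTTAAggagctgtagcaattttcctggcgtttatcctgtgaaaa
The run occupied bases 46 to 40 before the start. TATTTAA was searched on both strands and occurred before 4.18% of 32851 RefSeq transcript starts, over windows of the same length. Among the members it also occurred before Akr1c12, Akr1c13 and Akr1c21, and not before Akr1c6, Akr1c18 or Akr1c19. It is therefore not particular to Akr1c14. The letters TGACNNNGC, the core of the antioxidant response element bound by NRF2, were searched for because human members of the family are known to answer to NRF2. They did not occur on either strand in this window, and 10.2% of all windows hold them. The windows of the other members with a sequence did not hold them either, so their absence is not particular to Akr1c14. No match says only that these letters are not in the window searched.

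Akr1c12 stood at nearly the same mean in both groups. Its probe set (17290275) read 4.91 and 4.81 on the siNF90 arrays, against 5.14 and 4.55 on the siNTC arrays. The siNTC arrays enclosed the siNF90 arrays, so the groups overlapped. The means were 4.86 ± 0.07 in siNF90 and 4.85 ± 0.42 in siNTC, with a difference of 0.02 ± 0.21. That difference was 0.31 without the first siNTC array and -0.28 without the second, so its sign rests on single arrays.

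Akr1c13 is the member without a probe set of its own. A further probe set (17284936) carries the symbols of both Akr1c13 and Akr1c12, and its values belong to neither gene alone. It read 5.4 and 5.26 on the siNF90 arrays, against 5.65 and 5.48 on the siNTC arrays, a difference of -0.24 ± 0.14 (SE). Each siNF90 array lay below each siNTC array there, whereas the probe set of Akr1c12 alone overlapped. Probe sequences are not used here, so how far any probe set of the family also reads a near-identical relative was not tested.

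The sequences before the starts of Akr1c12, Akr1c13 and Akr1c19 are shown because Akr1c12 and Akr1c13 share a probe set and all 3 hold repeated copies of the same letters. Each run is 250 bases from RefSeq (GRCm38.p6), at chr13:4279400-4279649 on the minus strand for Akr1c12, chr13:4190937-4191186 on the plus strand for Akr1c13 and chr13:4233490-4233739 on the plus strand for Akr1c19. Capitals mark CATTAG and TATTTAA, which did not overlap each other.
Akr1c12: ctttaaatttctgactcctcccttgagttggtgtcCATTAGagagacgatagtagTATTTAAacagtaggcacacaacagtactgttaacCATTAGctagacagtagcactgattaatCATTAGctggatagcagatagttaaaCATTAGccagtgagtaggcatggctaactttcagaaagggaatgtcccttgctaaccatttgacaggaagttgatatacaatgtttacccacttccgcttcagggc
Akr1c13: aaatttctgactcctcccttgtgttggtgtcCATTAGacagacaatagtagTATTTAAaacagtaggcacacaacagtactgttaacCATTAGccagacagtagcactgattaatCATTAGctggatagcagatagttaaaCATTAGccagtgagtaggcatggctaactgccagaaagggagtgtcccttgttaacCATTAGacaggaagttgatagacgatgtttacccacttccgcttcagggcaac
Akr1c19: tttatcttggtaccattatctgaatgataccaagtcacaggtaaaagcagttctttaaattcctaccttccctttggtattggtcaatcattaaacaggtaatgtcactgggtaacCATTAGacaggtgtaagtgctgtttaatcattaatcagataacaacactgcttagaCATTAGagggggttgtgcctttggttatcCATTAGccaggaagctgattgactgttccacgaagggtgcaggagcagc
Akr1c12 and Akr1c13 were identical at 235 of 254 aligned columns (92.5%). Akr1c19 matched Akr1c12 at 58.4% and Akr1c13 at 60.3% of columns, and the 18 other pairs among the 7 members with a sequence matched at 47.1% to 54.9%. CATTAG occurred 4 times before Akr1c12, 5 times before Akr1c13 and 3 times before Akr1c19, each time on the strand shown. It was chosen after these letters were seen and was searched on both strands. It occurs at least once in 6.36% of the 32851 windows and at least 3 times in 8 of them, 3 of which are these genes. Akr1c14 and Akr1c18 hold none, and Akr1c6 and Akr1c21 hold 1 each. Akr1c20 has no entry in the sequence table.

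Akr1c20 and Akr1c19 also read lower in siNF90, both from low signals. Akr1c20 (probe set 17290288) read 1.07 and 0.51 on the siNF90 arrays, against 1.65 and 1.33 on the siNTC arrays. Each siNF90 array lay below each siNTC array, with 0.26 between the nearest arrays and 0.56 between the siNF90 arrays themselves. The means were 0.79 ± 0.4 in siNF90 and 1.49 ± 0.23 in siNTC, a difference of -0.7 ± 0.22 (SE). Leaving out the second siNF90 array gave -0.42 and leaving out the first gave -0.98. Of the 6557 other genes within 0.25 of its mean level, 5 (0.0763%) had a difference as low. This share too comes from the contrast that chose the family and is no evidence about it.

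Akr1c19 (probe set 17284948) read 0.84 and 1.2 on the siNF90 arrays, against 1.34 and 1.51 on the siNTC arrays. The groups did not overlap, and the nearest arrays stood 0.14 apart, less than the 0.36 between the siNF90 arrays. The means were 1.02 ± 0.25 in siNF90 and 1.43 ± 0.12 in siNTC, a difference of -0.41 ± 0.16. Leaving out the first siNF90 array gave -0.23 and leaving out the second gave -0.59. Of the 6257 other genes within 0.25 of its mean level, 124 (1.98%) had a difference as low. As for Akr1c20, that share is no evidence about the family.

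All 4 arrays put Akr1c20 and Akr1c19 below the median level of all genes. Odorant and vomeronasal receptor genes, which most cells outside the nose do not use, gave a scale for such signals. The 1394 receptor genes had a median mean level of 0.9, and 95% of them lay at or below 1.65. Of these receptor genes, 22.8% had a mean above that of Akr1c20 and 16.4% above that of Akr1c19. For Akr1c14 the share was 0.646%, and for Akr1c12 it was 0.215%. A fold change is therefore given for Akr1c14 and for no low member.

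The remaining members overlapped between the groups. Akr1c18, which inactivates progesterone in the rodent corpus luteum, read 2.21 and 2.7 on the siNF90 arrays, against 2.59 and 2.28 on the siNTC arrays (probe set 17290263). Its difference was 0.02 ± 0.2 (SE), smaller than the gap between the arrays of either group (0.49 in siNF90 and 0.31 in siNTC). Its mean lay above the median of all genes, and 1.36% of the receptor genes had a higher one. Akr1c6, known from mouse liver for converting androstenedione to testosterone, read 0.94 and 1.37 in siNF90, against 0.61 and 1.22 in siNTC (probe set 17284965). Its difference was 0.24 ± 0.25, and the second array of each group was the higher. Akr1c21, which makes epitestosterone, read 1.1 and 1.16 in siNF90, against 1.09 and 1.25 in siNTC (probe set 17284981), a difference of -0.04 ± 0.13. Akr1c6 and Akr1c21 lay below the median level of all genes on every array, and 31.9% and 22.1% of the receptor genes had a higher mean than they did.

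Over the family, siNF90 had the lower mean in 4 of the 7 measured members and the higher mean in 3, and the median difference was -0.04. Over all 22180 genes siNF90 had the lower mean in 45.8%, and the median was 0.02. The groups stood apart without overlap in 3 of the 7, against 39.8% of all genes. In all 3 siNF90 was the lower group, a pattern found in 17.9% of all genes, and in 0 it was the higher group (21.9% of all genes). At least 2-fold differences were found in 1 member that was lower and in 0 that were higher, and 0.0812% of all genes were at least 2-fold higher. The differences ran from -1.25 to 0.24, so the members of the cluster did not share a size. The 3 above 0 were each smaller than their standard error, so whether the members share a sign cannot be said. Of the 3 members at or above the median level, 1 was lower in siNF90 and the other 2 differed by 0.02 each.

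**Figure D2:**
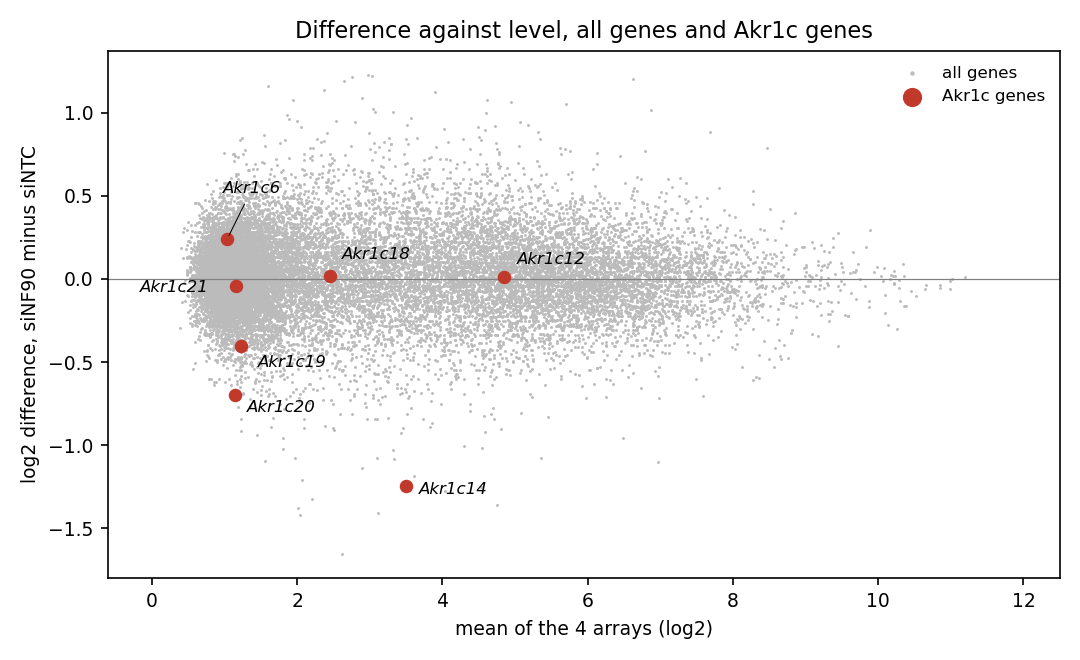
Log2 difference, siNF90 minus siNTC (y axis), against the mean of the 4 arrays (x axis, log2). Each grey point is 1 of 22180 genes and the red points are the 7 measured Akr1c genes. Akr1c14 lies at -1.25 at a mean of 3.5, apart from genes of like level, while Akr1c12 and Akr1c18 lie at 0.02. Akr1c20 lies at -0.7, at the lower edge of the genes of like level. Akr1c6, Akr1c19 and Akr1c21 lie among the dense low values.

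The cluster lies on chromosome 13, and its place was used to ask whether neighbouring genes differed as Akr1c14 did. The RefSeq table lists 14 genes from the first member, Akr1c14, to the last, Akr1c21. The neighbours with a measured probe set were 1 gene inside the cluster and the nearest 5 on each side. In limma's test over all genes 0 of these 11 passed an adjusted p of 0.05. With the prior for the variance set by a gene's level (limma's trend) 0 passed as well, and 1 had an unadjusted p under 0.05. Over all genes 0 of 22180 passed (0%), 101 passed with that prior (0.455%), and 2281 had an unadjusted p under 0.05 (10.3%).

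The neighbour with the unadjusted p under 0.05 was Marcksl1-ps4, a transcribed pseudogene between Akr1c19 and Akr1c12. It read 3.53 and 3.87 on the siNF90 arrays, against 4.21 and 4.27 on the siNTC arrays. Each siNF90 array lay below each siNTC array, and the difference was -0.54 ± 0.15 (SE; limma, adjusted p = 0.409). Next to Akr1c14 on its outer side, Ucn3 differed by 0.07 ± 0.18 and Tubal3, a tubulin-like gene, by -0.14 ± 0.12. Beyond these, Net1 differed by -0.12 ± 0.14, and Calm5 and Calm4, calmodulin-like genes, by 0.05 ± 0.25 and -0.13 ± 0.12. On the side of Akr1c21, Akr1e1, an aldo-keto reductase outside the Akr1c group, read 4.9 and 4.85 in siNF90, against 4.84 and 5.19 in siNTC. Its difference was -0.14 ± 0.15, so the aldo-keto reductase next in the row overlapped between the groups. The lncRNA gene 1700016G22Rik differed by 0.29 ± 0.12, with means at the 9.42th percentile of all genes in siNF90 and the 1.23th in siNTC. Klf6, a zinc finger transcription factor, differed by -0.02 ± 0.16, Pitrm1, a mitochondrial protease, by 0.05 ± 0.12, and Pfkp, a phosphofructokinase of glycolysis, by 0.2 ± 0.12. Of the 11 neighbours, 6 were below 0 and 5 above, with a median of -0.02.

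**Figure D3:**
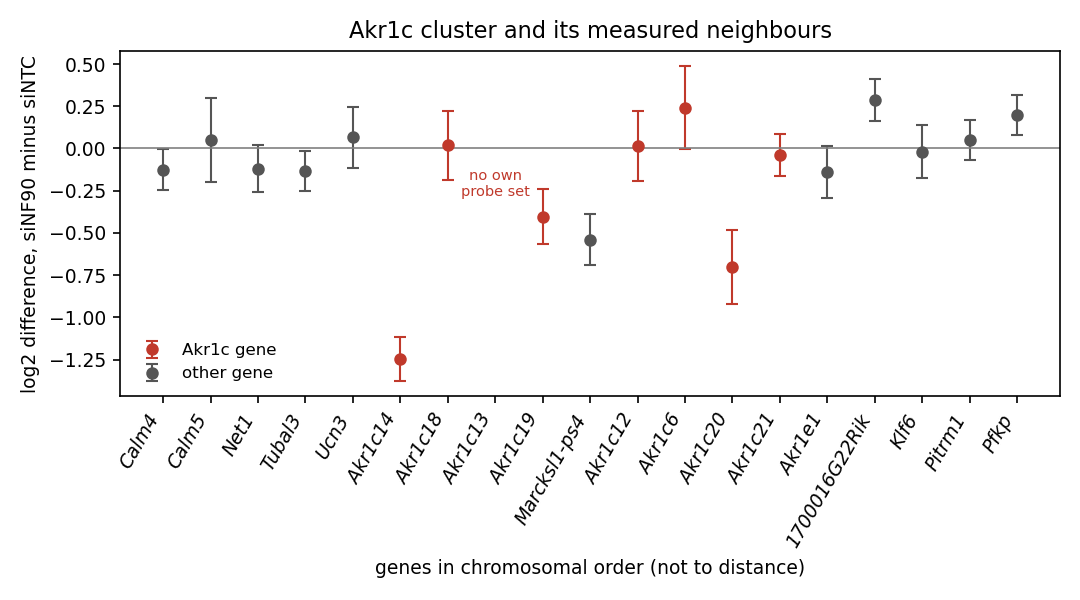
Log2 difference, siNF90 minus siNTC (y axis), with its standard error, for the Akr1c genes (red) and the nearest measured genes (grey), in chromosomal order and not to distance (x axis). The lowest point is Akr1c14 at -1.25, and its neighbours Ucn3 and Akr1c18 lie at 0.07 and 0.02. Akr1c13 has no point because it has no probe set of its own.

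Genes with related functions were taken from lists of enzymes, receptors and response genes. No gene of any list passed limma's test over all genes, and the smallest adjusted p among their 145 measured genes was 0.342. Of these 145, 18 had an unadjusted p under 0.05, against 10.3% of all genes. With the prior that follows the level, 2 of the 145 passed, against 0.455% of all genes. They were the beta cell marker Slc2a2, which was lower, and Cd68, listed as a macrophage marker, which was higher. The other leukocyte and macrophage markers of its list overlapped between the groups. None of the enzymes and receptors of the steroid lists passed in either fit.

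Other aldo-keto reductases lay close to 0, with 6 of 10 below it and a median of -0.01, and their differences ran from -0.14 to 0.16. Akr7a5 differed by 0.16 ± 0.15 (SE) and Kcnab3, a potassium channel subunit of this superfamily, by -0.14 ± 0.16. Both groups overlapped in all 10. The other hydroxysteroid dehydrogenases and steroid reductases were split, with 11 of 22 below 0 and a median of 0.01. Hsd17b4, the multifunctional enzyme of peroxisomal beta-oxidation, read 5.33 and 5.34 in siNF90, against 6.12 and 5.75 in siNTC, a difference of -0.6 ± 0.16 (adjusted p = 0.391). Hsd17b11 read 2.77 and 2.87 in siNF90, against 2.23 and 2.39 in siNTC, a difference of 0.51 ± 0.13 (adjusted p = 0.371). Hsdl2 differed by -0.35 ± 0.16. Of the 22, 4 were lower and 4 higher in siNF90 without overlap, near the shares of all genes (17.9% lower and 21.9% higher).

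Genes that make steroids from cholesterol had 5 of 10 below 0 and a median of 0.03. Star, which carries cholesterol into mitochondria, read 1.92 and 2.28 in siNF90, against 1.26 and 1.95 in siNTC, so the groups overlapped. Cyb5a, a cytochrome that aids steroid synthesis, differed by 0.24 ± 0.15 and Fdx1, an electron carrier for the mitochondrial enzymes, by -0.23 ± 0.15. Among steroid receptors 5 of 8 lay below 0, with a median of -0.04. Pgrmc2 and Pgrmc1, membrane proteins of the progesterone receptor component family, differed by -0.25 ± 0.17 and -0.12 ± 0.12. Nr3c2, the mineralocorticoid receptor, differed by 0.16 ± 0.15. Steroid sulfation genes had a median of 0.09 over 7 genes, and all 7 had means under 1.845 in both groups. The largest difference among them was that of Sult1c2, at 0.775 ± 0.15 (limma, adjusted p = 0.357). It came from low signals, 1.53 and 1.8 in siNF90, against 0.98 and 0.8 in siNTC.

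Carbonyl reductases of the short-chain family, which share substrates with the aldo-keto reductases but not their fold, had 4 of 12 below 0 and a median of 0.02. Cbr4 read 4.11 and 3.67 in siNF90, against 4.67 and 4.32 in siNTC, a difference of -0.61 ± 0.2 (adjusted p = 0.434). Dhrs1 differed by -0.41 ± 0.12 and Dhrs3, a retinal reductase, by 0.4 ± 0.18. Genes of the NRF2 pathway and the antioxidant response had 19 of 27 above 0 and a median of 0.1. Without overlap, siNF90 was the higher group in 11 of these 27 and the lower group in 1, shares to be read against 21.9% and 17.9% of all genes. Hmox1, haem oxygenase, read 5.69 and 5.44 in siNF90, against 5.04 and 5.11 in siNTC, a difference of 0.49 ± 0.14 (adjusted p = 0.409). Srxn1, which repairs oxidised peroxiredoxins, differed by 0.37 ± 0.2 and Ephx1, an epoxide hydrolase, by 0.36 ± 0.14. Genes of prostaglandin synthesis, breakdown and reception had 10 of 16 above 0 and a median of 0.1. Ptges2, a prostaglandin E synthase, differed by 0.43 ± 0.13, Hpgds, a prostaglandin D synthase, by 0.34 ± 0.14 and Ptges3 by 0.3 ± 0.21.

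**Figure D4:**
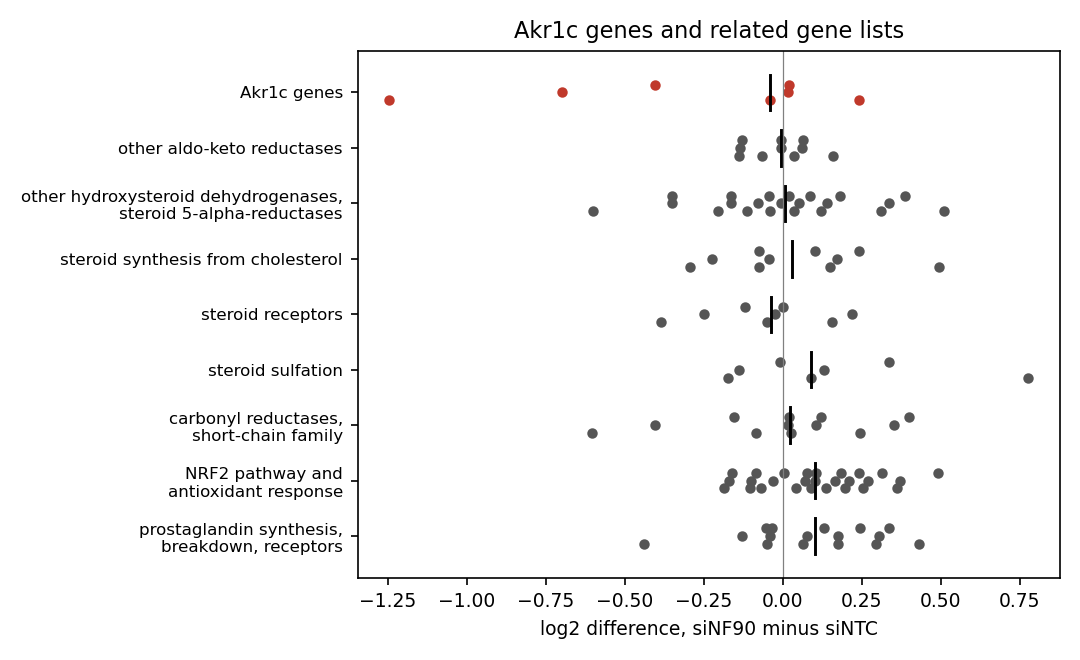
Log2 difference, siNF90 minus siNTC (x axis), for the measured Akr1c genes (red, top row) and for the measured genes of 8 related lists (grey). Each point is a gene, its height within a row carries no meaning, and black bars are medians. Akr1c14 at -1.25 lies below every gene of the 8 lists, the lowest of which is Cbr4 at -0.61.

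Markers of beta cells and of other cells, some of them known to use Akr1c genes, were read beside these values. Of the 9 beta cell markers, 4 lay below 0 and 5 above, with a median of 0.07. The hormone genes Ins2 and Iapp differed by -0.05 ± 0.12 (SE) and -0.17 ± 0.13, and the zinc transporter gene Slc30a8 by -0.23 ± 0.12. The transcription factor genes Pdx1, Neurod1, Mafa and Nkx6-1 differed by 0.08 ± 0.13, 0.19 ± 0.13, 0.38 ± 0.15 and 0.45 ± 0.12. Slc2a2 was the lowest of the list at -1.08 ± 0.13 (adjusted p = 0.342, or 0.0153 with limma's trend). Hepatocyte markers had 4 of 8 below 0 and a median of -0.04. Their summed log2 level was 18.22 and 18.07 on the siNF90 arrays, against 18.61 and 18.5 on the siNTC arrays, so it was lower in siNF90 as Akr1c14 was, and its part in that result was not tested. Without overlap, siNF90 was the lower group in 4 of the 8 and the higher group in 2 (17.9% and 21.9% of all genes). The 4 were Tat and Serpina1a, given below, and the low signals Cyp2e1 and Cyp7a1. Cyp2e1 read 1 and 1.04 in siNF90, against 1.32 and 1.45 in siNTC. Cyp7a1 read 0.73 on both siNF90 arrays, against 1.03 and 1.06 in siNTC. Without Cyp2e1 and Cyp7a1, a choice made after seeing the data, the other 6 markers summed to 16.49 and 16.3 in siNF90, against 16.26 and 15.99 in siNTC. That sum keeps Alb, Apoa1 and Fgb, which are low signals too and had higher means in siNF90. The direction of the sum therefore depends on which markers are kept. Alb, the defining marker of hepatocytes, averaged 1.1 in siNF90 and 1.07 in siNTC and overlapped, within the range of the receptor genes. Tat, a tyrosine aminotransferase on that list, stood at 6.91 ± 0.16 in siNF90 and 7.16 ± 0.05 in siNTC. Its difference was -0.25 ± 0.13 (SE), and the groups did not overlap. Apoa2 differed by 0.27 ± 0.14 and Serpina1a by -0.12 ± 0.12. Markers of steroid-producing cells had 3 of 6 below 0 and a median of 0.03, and their summed log2 level overlapped, at 7.63 and 8.73 in siNF90 and 7.47 and 8.36 in siNTC. Cyp11a1, which starts steroid synthesis, averaged 1.48 in siNF90 and 1.53 in siNTC, below the median of all genes. Exocrine and duct markers had 5 of 8 above 0 and a median of 0.1, with Bhlha15 at 0.26 ± 0.14 and Krt7 at 0.1 ± 0.13, and their summed log2 level overlapped at 14.21 and 14.83 in siNF90 and 14.61 and 13.08 in siNTC. Stromal, endothelial and macrophage markers had 3 of 9 above 0 and a median of -0.03. Their summed log2 level was 14.07 on both siNF90 arrays, against 12.51 and 13.39 on the siNTC arrays, and Cd68 alone differed by 1.13 ± 0.12. Ptprc, Adgre1 and Csf1r, the other leukocyte and macrophage markers of the list, overlapped between the groups. They differed by -0.015 ± 0.17, -0.03 ± 0.12 and 0.37 ± 0.29, with means below the median level of all genes. No marker of these lists was at 0. In such bulk samples, fewer cells of a type and less RNA per cell cannot be told apart.

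Genes whose 4 values ran most like those of Akr1c14 were sought by distance. Each gene's values were centred on its own mean, and the root mean square distance to Akr1c14 over the 4 arrays was taken for the 11092 other genes at or above the median level. Slc2a2, the glucose transporter GLUT2, was the nearest at 0.09, and it read 4.78 and 4.86 in siNF90, against 6 and 5.8 in siNTC. Fstl5 and Ap1s3 followed, both at a distance of 0.13, and then Nemp1 at 0.17 and Neto1 at 0.19. All 5 were lower in siNF90, with differences of -1.08, -1.02, -1.01, -0.92 and -0.9 in the same order. With 4 arrays in 2 groups, likeness amounts to a like difference and a like spread within the groups.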

How the data were processed

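The authors deposited a table of log2 values, 1 per probe set and array, for GeneChip Mouse Gene 2.1 ST arrays hybridised with material from 250 ng of total RNA, per the labels' protocols. The submitters' processing notes name Transcriptome Analysis Console; its version, the log base and the background correction, normalization and summarization used: not given in the sources used here. Base 2 was taken because 5 to 10 values per array exceed 11.09, the natural log of the scanner's maximum. Precision is limited by the number of arrays.

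Gene symbols came from the platform annotation: of the probe sets 23521 have 1 symbol, 1814 several and 16010 none here. The probe set with the highest mean stood for a gene with several (1082 genes), which left 22180 genes, 22139 of them in the RefSeq table (GRCm38.p6). The values name no build, so genes were only put in order. Each measured Akr1c gene has 1 probe set.

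All genes were fitted with limma 3.58.1 (R 4.3.3; lmFit, eBayes without trend) as siNF90 minus siNTC, with 2 residual and 3.92 prior degrees of freedom, two-sided p-values and Benjamini-Hochberg adjustment at 0.05. With 2 arrays against 2, the smallest p of an exact permutation test is 0.33, so none was used. Promoter windows were aligned globally with Biopython 1.88. The members and lists were chosen with earlier results of these data known. Named genes were all members, all measured neighbours, the 5 genes nearest in pattern to Akr1c14, the beta cell markers, and from each other list those that passed or else up to 3 with the largest differences at or above the median level. Alb and Cyp11a1, as defining markers, and Cyp2e1, Cyp7a1, Apoa1, Fgb, Sult1c2, Ptprc, Adgre1 and Csf1r were added after their values were seen. Alternatives were another normalization, probe set choice, level filter, block, prior and leaving out each array.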

Additional observations from a re-analysis of the deposited data

How the results depend on the processing

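No gene passed the test over all genes under the alternatives run, except with a prior that follows the level, where 101 genes passed and 2 of them belonged to the related lists. With the replicate number as a block 0 genes passed, against 0 without it. The numbers are not stated to mark a batch, and across all genes the deviations of same-numbered arrays were not correlated (r = -0.02). That value is taken over all genes together, and a batch that touched part of them was not tested. The number of members below 0 was 1 with only genes at or above the median level, where 3 members remain to be counted. It was 4 with quantile normalization and with centred arrays. With other choices of probe set and with the block it was 4 as well, but these could not change it. Each measured member has 1 probe set, and each replicate number has 1 array in each group. Leaving out 1 array gave 5 members below 0 each time (5 to 5), and 0 genes past the test (0 to 0), over all genes and in the related lists. Each member's difference moved by no more than the spread between its arrays, in 66 of 66 values. Most of these values could not have come out otherwise, so that count is no evidence of robustness. Leaving out 1 of 2 arrays cannot move a difference beyond that spread. The block, the choice of probe set and the level filter leave a member's difference as it was. Akr1c6, Akr1c12, Akr1c18 and Akr1c21, whose groups overlap, changed sign when single arrays were left out. Of the 45 neighbours and list genes recomputed, 12 changed sign under at least 1 alternative, 10 of them with a difference no larger than its standard error. The other 2 were Nr3c2 and Ptges3. Nr3c2 was at -0.055 from its other probe set and ran from -0.015 to 0.325 with single arrays left out, lowest without the second siNTC array, and Ptges3 ran from -0.01 to 0.6, lowest without the second siNF90 array. The cause was not tested. Leaving an array out leaves its group with a single array, assumed to vary like the other group. Low signals without a measure of background limit what Akr1c6, Akr1c19, Akr1c20 and Akr1c21 can show.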
